A study of Mus musculus with 12 samples.

Results

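The nuclear genes for subunits of the oxidative phosphorylation complexes were followed in primary mouse skin fibroblasts. Members were chosen by gene symbol alone (Nduf followed by a, b, c, s or v and a digit, Sdha to Sdhd, Uqcr, Cyc1, Cox4 to Cox8 and Atp5), which gave 85 of the 21556 genes of the count table. They comprise 37 genes of complex I, 4 of complex II, 9 of complex III, 18 of complex IV and 17 of complex V. Ndufa4 and its relative Ndufa4l2 are placed with complex I by name, although the Ndufa4 protein is a subunit of complex IV.

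RNA was sequenced from WT (C57BL/6) and Nox4 KO (B6.129-Nox4tm1Kkr/J) cultures, each without stimulation and with 10 ng/ml TGF-β2, in 3 biological replicates per group and 12 libraries in all. All cultures came from abdominal skin, were used between passage 4 and 7 and were starved for 24 h, and the stimulation lasted 24 h. Nox4 encodes an NADPH oxidase that makes reactive oxygen species, and TGF-β2 turns fibroblasts into contractile myofibroblasts. The question of the design is how the response to TGF-β2 depends on Nox4. The KO allele was carried in every cell of the animal from conception, and WT and KO mice were bred as separate litters. The labels do not tie a culture to an animal, so p-values measure the spread between these cultures.

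Oxidative phosphorylation is carried out in the inner mitochondrial membrane. Complexes I and II pass electrons from NADH and succinate to ubiquinone, complex III passes them on to cytochrome c, complex IV hands them to oxygen, and complex V uses the resulting proton gradient to make ATP. Complexes I, III, IV and V mix subunits of nuclear and mitochondrial origin, and complex II is wholly nuclear. Several complex IV subunits exist as a common form and as forms typical of muscle, lung or testis. The subunits that mitochondrial DNA encodes are not analysed here.

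Promoter sequences were examined because subunit genes share few known activators, among them NRF1, GABP, YY1 and the estrogen-related receptors (ERR). RefSeq promoters (250 bases before to 50 after the start, build GRCm38.p6) were matched by symbol for 66 of the 85 members. The windows below belong to 4 members, 3 whose values are described later and Cox6a1 as a strongly expressed gene with a match. They are written 5′ to 3′ along the gene, with capitals where a searched motif matches on either strand.
Uqcrc1, chr9:108936668-108936697, plus strand: actccgctctGCGCATGCGCagcgcggctc
Cox6a1, chr5:115348959-115349158, minus strand: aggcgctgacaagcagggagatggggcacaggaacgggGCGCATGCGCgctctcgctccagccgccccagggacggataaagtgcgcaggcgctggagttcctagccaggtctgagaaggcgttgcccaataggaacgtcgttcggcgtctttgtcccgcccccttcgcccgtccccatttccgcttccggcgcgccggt
Cox8a, chr19:7217615-7217764, minus strand: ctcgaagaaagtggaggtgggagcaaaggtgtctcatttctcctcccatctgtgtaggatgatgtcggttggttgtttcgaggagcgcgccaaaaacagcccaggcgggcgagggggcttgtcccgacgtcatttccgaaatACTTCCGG
Cox5b, chr1:36691337-36691486, plus strand: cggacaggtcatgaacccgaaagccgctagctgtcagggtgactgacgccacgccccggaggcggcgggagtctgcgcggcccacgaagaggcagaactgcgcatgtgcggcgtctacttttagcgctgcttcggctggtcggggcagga

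In Uqcrc1 and Cox6a1 the capitals are the NRF1 letters GCGCATGCG, which match both strands with a shift of a base, and in Cox8a they are the GABP and ETS letters CCGGAAGT on the opposite strand. Cox5b held none of the letters searched in its promoter. Over the 66 members, NRF1 letters were found in 8 (12.1%, against 1.75% of all 32851 promoters), and AAGATGGCG, the YY1 letters, in 7 (10.6% against 1.4%). CCGGAAGT was found in 5 members (7.58% against 3.89%), and the ERR letters TCAAGGTCA in 2 (3.03% against 0.423%). The SMAD letters GTCTAGAC were found in 0 members and in 0.213% of all promoters. These matches are a description of letters and not of binding. Among the members called after TGF-β2 in the fits of 6 libraries without a block, Uqcrc1, Cox8a and Atp5k held a match, and Cyc1, Uqcrc2, Ndufa2 and Cox6c had no promoter entry. Among those called only with a replicate block, Ndufs4 held the YY1 letters, and Ndufa4l2, Sdhc, Cox6a2 and Atp5s had no entry.

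Levels are given as RPKM, reads per kilobase of merged exons, scaled to the total count of the library. In WT control cultures 14 of the 85 members reached 100 RPKM, 69 reached 10 and 78 reached 1. Atp5b, the catalytic beta subunit of ATP synthase, was the highest member at 537.7 ± 26.2 RPKM (SD, n = 3). The highest member of complex IV was Cox4i1 (275.1 ± 11.4), of complex III Uqcrh (140.9 ± 7.62), of complex I Ndufa4 (134 ± 1.52) and of complex II the flavoprotein Sdha (73.8 ± 1.04). The lowest members of these complexes were Sdhc (32.7 ± 0.653), a membrane anchor of complex II, Uqcrfs1 (35.6 ± 2.05), the Rieske iron-sulfur protein of complex III, and Ndufb4 (5.35 ± 0.714), an accessory subunit of complex I. Within complex II, Sdha (73.0, 75.0 and 73.5 RPKM) and Sdhd (73.3, 71.5 and 66.4) overlapped, while Sdhc lay below the other members in every WT control library.

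**Figure D1:**
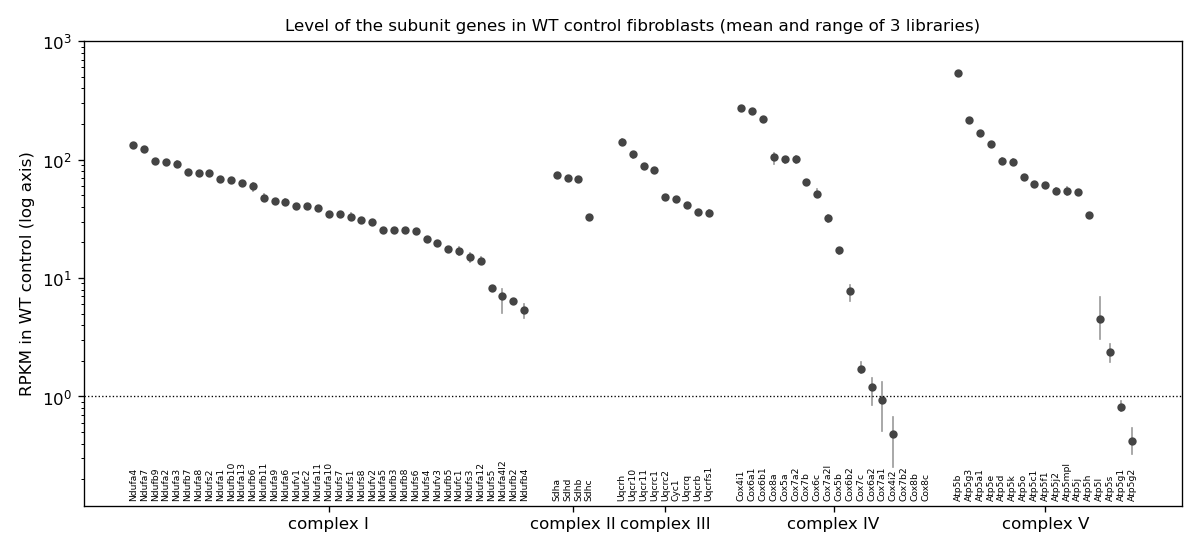
RPKM (log axis) of each subunit gene in WT control fibroblasts, ordered by complex, where points are means and grey lines the range of 3 libraries and the dotted line marks 1 RPKM. Members run from 537.7 RPKM for Atp5b down to genes without a count, and 78 of 85 lie at or above the line.

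The 7 members under 1 RPKM in WT control were Cox4i2, Cox7a1, Cox7b2, Cox8b, Cox8c, Atp5g1 and Atp5g2. Cox8b and Cox8c, the muscle and testis forms of Cox8, had 0 counts in all 12 libraries, which allows up to 3 counts per library. Cox7b2 had 2 counts over the 12 libraries. Atp5g2 (0.42 ± 0.11 RPKM in WT control) is one of several genes for the same ring protein of ATP synthase. Of its 50-base windows, 36.7% also occur in annotated transcripts of genes elsewhere in the genome. Reads with several locations were discarded before counting, so levels of members with many shared windows are uncertain. Such windows were found in 35 of the 85 members and made up under 10% in 69 members. They reached 68.5% in Atp5l, 43.2% in Uqcrb, 37.0% in Ndufb4, 36.9% in Atp5h and 36.7% in Atp5g2. Ndufs3 had 35.8%, Ndufa12 26.2%, Cox7c 23.0%, Atp5f1 22.5% and Cox5b 21.8%, with the other members at 21.7% or less. Windows shared with a gene that overlaps the member were counted apart. They made up 39.8% in Atp5o, 31.6% in Ndufb6, 29.2% in Cox5a, 27.1% in Ndufa13 and 24.2% in Uqcrc2, and less in the others.

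The library of TGF-β2-stimulated WT replicate 2 stood apart from the other 11 before any comparison was made. Members took 0.909% of its counts and 0.596% to 0.661% of those of the other libraries. Against the other 2 libraries of its group, its median log2 deviation was 0.59 over 77 members, of which 74 lay above 0. The shift followed gene length and was not limited to members. Over all genes the median deviation of this library was 0.61 for genes of up to 700 bases of merged exons and -0.32 for genes over 4000 bases, and Spearman's rho with length was -0.70 over 10278 genes and -0.52 over the 77 members (across genes, which are not independent replicates). Most members are short genes, and the log2 fold changes of named members in stimulated WT cultures are given with and without this library, except that of Cox4i2 and those of the length-corrected fit. Library totals lay between 35118344 and 43796260 counts.

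**Figure D2:**
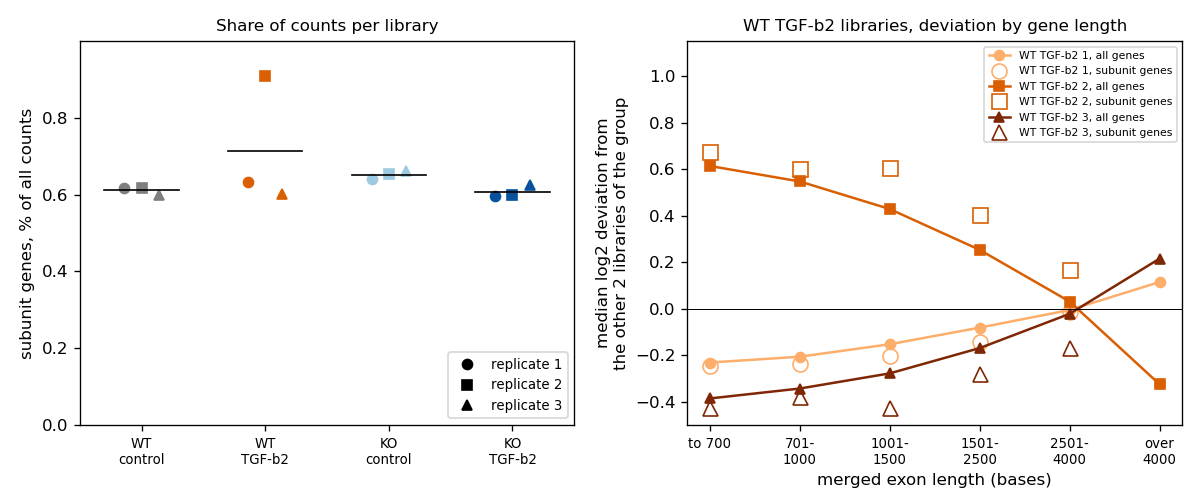
Left, the share of all counts (%) taken by subunit genes in each library, with bars at the mean of 3. Right, the median log2 deviation of each TGF-β2-stimulated WT library from the other 2 by merged exon length, for all genes (lines) and subunit genes (open symbols); replicate 2 holds 0.909% of its counts in subunit genes and deviates upward for short genes.

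Nox4 counts cannot show a deletion that leaves other exons in place. Nox4 measured 1.48, 1.31 and 2.43 RPKM in WT control, 0.655, 0.636 and 1.399 in KO control, 10.9, 8.56 and 16.3 in stimulated WT and 4.54, 4.39 and 6.85 in stimulated KO cultures. KO control overlapped WT control, and stimulated KO lay below stimulated WT in every library. All 10 fibroblast markers reached 1 RPKM and 0 of 7 keratinocyte markers did (summed level 0.571 to 1.09 RPKM). Of the skeletal muscle markers only Acta1, an actin, was tested, and it carried the summed level of that list from 42.5 to 96.7 RPKM in WT control to 275.5 to 614 after TGF-β2 and from 86.0 to 104.4 to 254.7 to 567.4 in KO, while Myod1 stayed at or under 0.0400 RPKM. The summed level of 7 myeloid markers ranged from 24.0 to 109.2 RPKM in WT control, 19.7 to 74.4 in stimulated WT, 19.0 to 83.5 in KO control and 12.5 to 60.3 in stimulated KO. The 7 adipocyte markers summed to 8.67 to 11.7, 3.06 to 3.37, 3.72 to 8.98 and 1.57 to 2.37 RPKM in the same order, and the part of other cell types in the results was not tested. In bulk RNA, fewer cells of a type and less RNA per cell cannot be told apart.

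In WT fibroblasts, 4 members were higher after TGF-β2 and 0 lower, and 3 of the 4 belong to the core of complex III. The comparison tested 78 members, the others falling under a mean of 1 RPKM in both groups. Calls required an adjusted p under 0.05 from the quasi-likelihood test of edgeR, where the Benjamini-Hochberg adjustment covered every gene in the fit. Of 10743 genes, 12.4% were called higher and 11.7% lower, so the members' 4 of 78 and 0 of 78 are below the background in both directions. At an unadjusted p under 0.05, 12 members were higher and 1 lower, against 20.7% and 17.8% of all genes, and DESeq2 called 9 members higher and 0 lower, against 15.5% and 16% of all genes. The log2 fold change was above 0 for 72 of 78 members with a median of 0.25, against 0.02 over all genes tested. Without the library that stands apart, 39 were above and 39 below 0, with a median of 0.00.

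Uqcrc1 and Uqcrc2, the core proteins of complex III, carry its matrix-facing part. Uqcrc1 measured 82.5, 84.6 and 79.0 RPKM in WT control and 102.5, 132.6 and 91.2 after TGF-β2. All stimulated WT libraries lay above all control libraries, with replicate 2 the highest. Its log2 fold change was 0.46 ± 0.13 (SE, adjusted p = 0.0485, edgeR's quasi-likelihood test, Benjamini-Hochberg), and 0.29 ± 0.09 (adjusted p = 0.0568) without replicate 2. Uqcrc2 measured 47.4, 47.8 and 48.7 RPKM in WT control and 52.5, 67.8 and 56.0 after TGF-β2, again without overlap. It rose by 0.35 ± 0.10 on the log2 scale (adjusted p = 0.0412), and by 0.23 ± 0.05 (adjusted p = 0.0264) without replicate 2.

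Cyc1 is cytochrome c1, the heme protein that hands electrons to cytochrome c. It measured 46.4, 47.2 and 45.6 RPKM in WT control and 56.8, 78.9 and 53.8 after TGF-β2, with no overlap. The log2 fold change was 0.50 ± 0.14 (adjusted p = 0.0417) and 0.31 ± 0.07 (adjusted p = 0.0229) without replicate 2. Uqcrfs1, the remaining nuclear-encoded redox protein of the complex, had 35.3, 37.8 and 33.7 RPKM in WT control and 44.8, 63.0 and 38.6 after TGF-β2. The groups did not overlap, and Uqcrfs1 did not pass (0.51 ± 0.17, adjusted p = 0.0733). Without replicate 2 the value was 0.28 ± 0.11 (adjusted p = 0.0975).

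Cox5b, a zinc-binding nuclear subunit of complex IV, had the largest positive change of the members in WT. It measured 17.6, 17.9 and 15.9 RPKM in WT control and 24.0, 38.0 and 22.5 after TGF-β2. All stimulated libraries lay above all controls, also leaving replicate 2 aside. Cox5b rose by 0.77 ± 0.19 on the log2 scale (adjusted p = 0.0317), and by 0.49 ± 0.10 (adjusted p = 0.0211) without replicate 2.

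Leaving out replicate 2 changed which members were called. The count was then 4 higher and 2 lower, at a background of 15.3% and 16.3% of 10750 genes. Cox5b, Cyc1 and Uqcrc2 were called with and without it. Ndufb2, an accessory subunit of complex I, was added (0.26 ± 0.07, adjusted p = 0.0351), and Cox6b2 (-1.18 ± 0.21, adjusted p = 0.0122) and Ndufa13 (-0.36 ± 0.08, adjusted p = 0.0282) were lower. With all 6 libraries Ndufb2 was at 0.50 ± 0.16 (adjusted p = 0.0697), Cox6b2 at -0.62 ± 0.37 (adjusted p = 0.266) and Ndufa13 at -0.07 ± 0.19 (adjusted p = 0.812). Without any of the 3 control libraries or stimulated replicate 1, 0 members were called higher. Outside complexes III and IV no member was called in the 6 libraries, where the member with the largest change was Ndufa4l2 in complex I (-0.62 ± 0.25, adjusted p = 0.122), Sdhb in complex II (0.31 ± 0.15, adjusted p = 0.165) and Atp5d in complex V (0.42 ± 0.20, adjusted p = 0.177). Without replicate 2 these were -0.64 ± 0.30, 0.10 ± 0.06 and 0.13 ± 0.11.

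In Nox4 KO fibroblasts, 14 members were lower after TGF-β2 and 2 were higher. The lower members were 8 accessory subunits of complex I (Ndufa2, Ndufa3, Ndufa5, Ndufa6, Ndufa7, Ndufa13, Ndufb11 and Ndufv3), 4 subunits of complex IV (Cox5b, Cox6b2, Cox6c and Cox8a) and 2 of complex V (Atp5e and Atp5k). The higher members were Uqcrc1 and Uqcrc2. Of 10809 genes tested, 15.1% were called higher and 14.9% lower, so 14 of 78 lower is close to the background and 2 of 78 higher is below it. The log2 fold change was below 0 for 61 of 78 members with a median of -0.11, against -0.01 over all genes. The call counts leaned on single libraries, with 1 member lower without stimulated KO replicate 2, 3 without stimulated replicate 1, 3 without control replicate 2, 5 without control replicate 1 and 11 or 13 without the others. Both higher calls were lost without control replicate 1, control replicate 2 or stimulated replicate 2, and also with upper-quartile scaling or library size alone, and 1 higher call remained without control replicate 3 or stimulated replicate 1.

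Replicate numbers paired the KO libraries, whose deviations from their group means correlated at 0.771, 0.684 and 0.748. With the replicate number as a block, 21 members were lower and 4 higher, at a background of 28.8% and 25.2%. The block added Ndufa1, Ndufa4l2, Ndufb6, Ndufs4, Sdhc, Cox6a2 and Atp5s to the lower and Uqcrfs1 and Cox5a to the higher members, and it kept the 16 called without it.

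**Figure D3:**
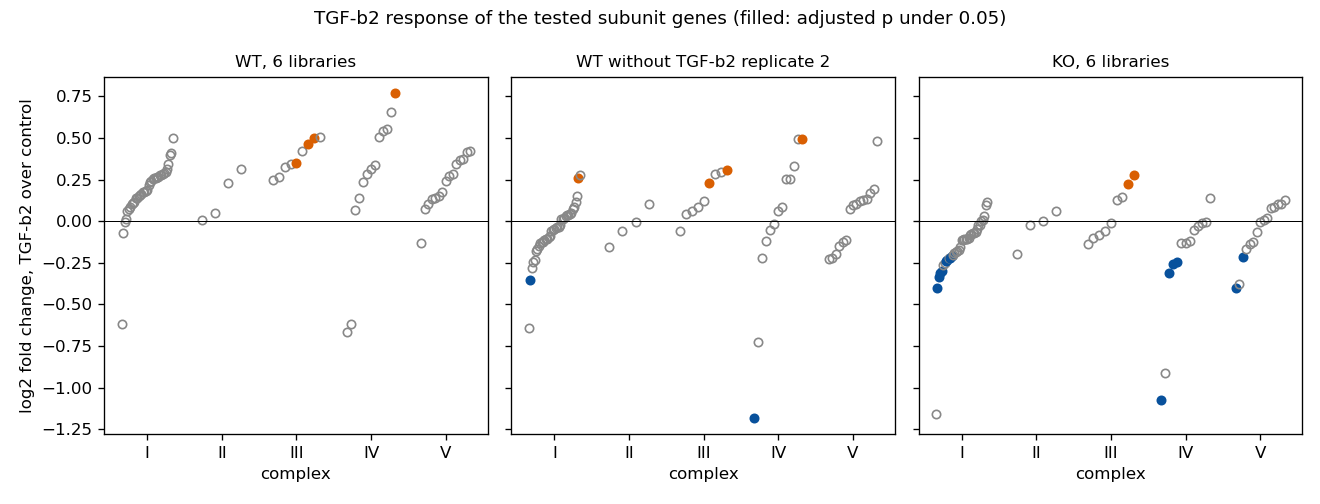
Log2 fold change of each tested subunit gene after TGF-β2 (y axis) by complex (x axis), in WT with 6 libraries, in WT without stimulated replicate 2 and in Nox4 KO; filled points have an adjusted p under 0.05. The WT cloud (72 of 78 above 0) moves to 39 above and 39 below 0 without replicate 2, and 61 of 78 members lie below 0 in KO.

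Cox6b2, the testis form of a subunit on the intermembrane side of complex IV, had the largest called change in KO. It measured 8.85, 8.51 and 9.73 RPKM in KO control and 3.43, 3.42 and 5.25 after TGF-β2, so stimulated libraries lay below all controls. It fell by 1.08 ± 0.20 on the log2 scale (adjusted p = 0.0127, edgeR's quasi-likelihood test), the only called member with a change of at least 2-fold in the fit without a replicate block, and without stimulated replicate 2 the value was -0.98 (adjusted p = 0.0562). Its common partner Cox6b1 had 214.3, 235.0 and 234.2 RPKM in KO control and 203.4, 207.0 and 219.4 after TGF-β2, which overlap (-0.03 ± 0.06, adjusted p = 0.718).

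Ndufa13, an accessory subunit of complex I also known as GRIM-19, measured 68.8, 66.4 and 63.5 RPKM in KO control and 47.5, 43.7 and 50.5 after TGF-β2. The groups did not overlap, and Ndufa13 fell by 0.40 ± 0.07 on the log2 scale (adjusted p = 0.0116). In WT its values were 64.6, 59.9 and 64.2 in control and 50.1, 78.7 and 44.5 after TGF-β2, where replicate 2 alone lay above the controls. Ndufv3, an accessory subunit at the NADH-oxidizing end, measured 23.6, 21.3 and 20.4 RPKM in KO control and 16.2, 15.6 and 16.9 after TGF-β2 (-0.34 ± 0.08, adjusted p = 0.0243). Ndufa3 and Ndufa6, both accessory, changed by -0.31 ± 0.09 (adjusted p = 0.0394) and -0.30 ± 0.08 (adjusted p = 0.0319). In neither did stimulated KO libraries overlap the controls.

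Atp5e, the epsilon subunit of the F1 head of ATP synthase, had the smallest adjusted p of the members in KO. It measured 151.9, 154.2 and 143.5 RPKM in KO control and 106.7, 105.3 and 108.9 after TGF-β2, well apart. Atp5e fell by 0.40 ± 0.06 on the log2 scale (adjusted p = 0.00710). In WT it had 139.2, 130.0 and 137.2 RPKM in control and 119.2, 184.1 and 108.5 after TGF-β2, with replicates 1 and 3 below the controls and replicate 2 above (0.07 ± 0.18, adjusted p = 0.802, and -0.20 ± 0.08, adjusted p = 0.111 without replicate 2). The other F1 members Atp5a1 and Atp5b, the alpha and beta subunits, were at 0.13 ± 0.05 (adjusted p = 0.123) and 0.10 ± 0.06 (adjusted p = 0.244) in KO.

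Within complex IV, Cox6c measured 51.5, 52.4 and 55.0 RPKM in KO control and 41.4, 41.2 and 43.7 after TGF-β2 (-0.25 ± 0.05, adjusted p = 0.0167). Cox8a, the ubiquitous form of the smallest subunit, measured 118.2, 127.4 and 126.6 RPKM in KO control and 90.2, 91.1 and 101.3 after TGF-β2. It fell by 0.31 ± 0.06 on the log2 scale (adjusted p = 0.0178), with no overlap between groups. Cox5b measured 23.6, 22.7 and 22.3 RPKM in KO control and 18.2, 17.2 and 18.8 after TGF-β2. It fell by 0.26 ± 0.07 on the log2 scale (adjusted p = 0.0430), and this call was lost (adjusted p from 0.0501 to 0.154) in each fit without 1 of the 6 libraries.

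The core proteins of complex III went the other way in KO. Uqcrc1 measured 84.8, 88.9 and 83.4 RPKM in KO control and 93.9, 96.8 and 92.1 after TGF-β2, without overlap, and rose by 0.22 ± 0.06 on the log2 scale (adjusted p = 0.0413). Uqcrc2 measured 46.3, 46.3 and 51.7 RPKM in KO control and 52.1, 53.6 and 59.1 after TGF-β2. The stimulated libraries all lay above the controls, and Uqcrc2 rose by 0.28 ± 0.07 (adjusted p = 0.0273). Without 1 library its adjusted p lay between 0.0336 and 0.0903. The 5 small subunits of complex III (Uqcrb, Uqcrh, Uqcrq, Uqcr10 and Uqcr11) had log2 fold changes from -0.14 to -0.01 and 0 were called.

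**Figure D4:**
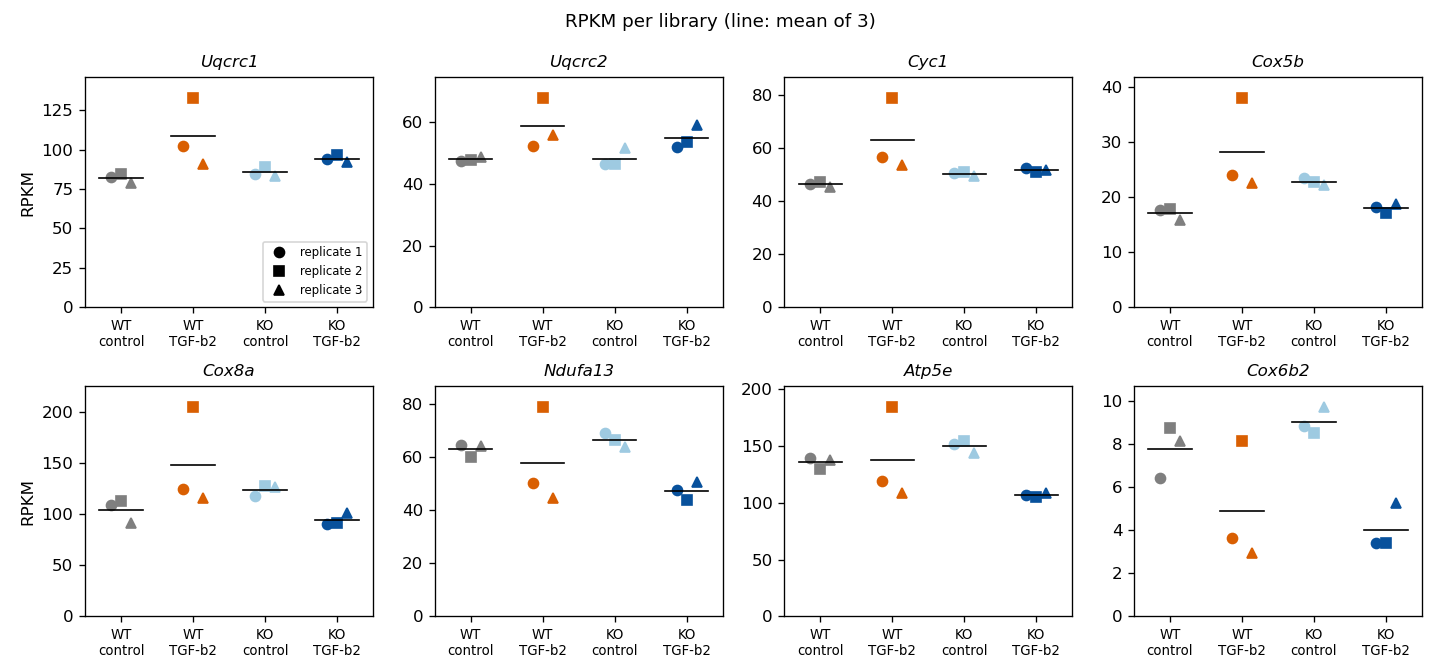
RPKM per library (y axis, from 0) of 8 subunit genes in the 4 groups, with symbols for replicate numbers and bars at the mean of 3. Uqcrc1 and Uqcrc2 lie above their controls in both genotypes, Cox5b and Cox8a lie above in WT and below in KO, and WT stimulated replicate 2 is the highest of its group in all 8.

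Grouped by role, a grouping made after the values were seen, the redox and core proteins of complex III (Cyc1, Uqcrfs1, Uqcrc1 and Uqcrc2) had positive values in 4 of 4 in KO with a median of 0.18, and a median of 0.48 in WT and 0.29 in WT without replicate 2. The 7 core subunits of complex I that carry its redox chemistry had 0 called in KO and a median of -0.08. Of its 30 accessory subunits, 8 were lower with a median of -0.18, against 14.9% of all genes called lower. Accessory subunits are also shorter, with a median merged exon length of 868 bases against 1774. Because the shift of WT replicate 2 followed length, a fit that removed each library's trend over length was added after the data had been seen. In it the members' median was 0.02 in WT and -0.01 in KO, with 7 members higher and 5 lower in the former and 6 and 5 in the latter. Over all genes that fit called 16.8% higher and 17.3% lower in WT and 15.2% and 14.7% in KO, above the members' shares. In KO it called 2 of the 30 accessory subunits of complex I lower, with a median of -0.076, and 0 of the 7 core subunits. Cyc1, Uqcrc1, Uqcrc2 and Uqcrfs1 were called higher in both genotypes in that fit, with log2 fold changes of 0.35, 0.32, 0.22 and 0.32 in WT and 0.19, 0.28, 0.33 and 0.22 in KO. Cox5b was called in WT (0.54, adjusted p = 0.00438) and not in KO, the interaction described below was called for 0 members, and Ndufa13, Cox6b2 and Atp5e were lower in both genotypes. Ndufv3 and Cox8a were still called lower in KO in that fit. Ndufa3, Ndufa6 and Cox6c were no longer called there, with log2 fold changes of -0.17, -0.17 and -0.15 in KO.

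The genotypes were next compared at each condition. In control cultures, 0 of 10767 genes differed between KO and WT in edgeR's quasi-likelihood test at an adjusted p under 0.05, a background of 0% (262 higher and 335 lower at an unadjusted p under 0.05, and 9 higher and 19 lower in DESeq2, with 0 members among them). Of the members, 3 were higher and 0 lower at an unadjusted p under 0.05, namely Cox5b (0.37 ± 0.09), Uqcrq (0.20 ± 0.06) and Ndufa4 (0.13 ± 0.05), each with an adjusted p of 0.828 in edgeR. Cox5b in KO control (22.3 to 23.6 RPKM) lay above every WT control library (15.9 to 17.9). The members' median was 0.05, and 0.00 over all genes.

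After TGF-β2, 0 of 10439 genes differed between KO and WT in edgeR, again a background of 0% (168 higher and 169 lower at an unadjusted p under 0.05, and 8 and 8 in DESeq2, with 0 members among them). At an unadjusted p under 0.05, 0 members were higher and 4 lower, Cox5b (-0.61 ± 0.19), Cox8a (-0.63 ± 0.20), Ndufb2 (-0.45 ± 0.16) and Ndufs3 (-0.30 ± 0.12), with an adjusted p of 0.838 each in edgeR. Without WT replicate 2 these were -0.37, -0.36, -0.25 and -0.20, and the members' median of -0.26 became -0.04. Cox5b had 18.2, 17.2 and 18.8 RPKM in stimulated KO and 24.0, 38.0 and 22.5 in stimulated WT, which do not overlap.

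The difference between the TGF-β2 changes of the genotypes was tested as an interaction over all 12 libraries. It was called for 0 of 10890 genes, a background of 0% (75 above and 217 below 0 at an unadjusted p under 0.05, and 0 and 6 in DESeq2), and for 0 of 78 members (0 and 9 unadjusted). Cox5b had the smallest p of the members, with a KO minus WT difference in log2 fold change of -0.99 ± 0.22 (adjusted p = 0.854, edgeR). Cox8a followed at -0.83 ± 0.24 and Ndufb2 at -0.57 ± 0.18, with the same adjusted p. Without WT replicate 2 these differences were -0.75 ± 0.12, -0.57 ± 0.14 and -0.37 ± 0.08, with adjusted p of 1.00. The members' median difference of -0.31 became -0.10.

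The direction of Cox5b, Cox8a and Uqcrb was opposite in the genotypes, in that every stimulated WT library lay above every WT control and every stimulated KO library below every KO control, in CPM (counts scaled to the library size) with edgeR's TMM scaling factors. This was found for 3 of 78 members and for 19 of 10890 genes (0.174%). Cox8a measured 108.9, 113.5 and 91.9 RPKM in WT control and 124.6, 205.1 and 116.5 after TGF-β2. Its WT log2 fold change did not pass (0.55 ± 0.21, adjusted p = 0.1065, edgeR's quasi-likelihood test), and was 0.25 ± 0.12 (adjusted p = 0.17) without replicate 2. Uqcrb, a small subunit of complex III, measured 36.4, 35.2 and 37.1 RPKM in WT control and 36.4, 52.9 and 36.5 after TGF-β2, and 38.7, 37.9 and 40.7 in KO control and 34.3, 34.2 and 35.9 after TGF-β2. On the RPKM scale the WT values of Uqcrb overlap, so its pattern depends on the scaling. Uqcrb was called in neither genotype. Its log2 fold change in WT was 0.265 ± 0.144 (adjusted p = 0.226), and 0.06 ± 0.07 (adjusted p = 0.505) without replicate 2. In KO it was -0.08 ± 0.06 (adjusted p = 0.361). With the length trend removed, Uqcrb was at 0.011 in WT and 0.065 in KO, so its directions were no longer opposite. Those of Cox5b and Cox8a still were. Stimulated libraries lay above controls in both genotypes for 8 members (Cyc1, Uqcrc1, Uqcrc2, Uqcrfs1, Atp5a1, Atp5b, Atp5f1 and Atp5g3), against 17.3% of all genes, and below in both for 0 members, against 13.3%.

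Isoform pairs were set side by side as the RPKM of the alternative form in percent of the common form, which removes a shift shared by both. Cox6b2 was at 2.83%, 3.90% and 3.84% of Cox6b1 in WT control and 1.68%, 2.28% and 1.44% after TGF-β2, and at 4.13%, 3.62% and 4.15% in KO control and 1.69%, 1.65% and 2.39% after TGF-β2. In both genotypes the stimulated values lay below all control values, WT replicate 2 included. Ndufa4l2, a hypoxia-induced relative of Ndufa4, was at 5.92%, 3.71% and 6.04% of Ndufa4 in WT control and 3.86%, 2.16% and 2.62% after TGF-β2, which overlap. In KO it was at 6.42%, 5.80% and 2.02% and then at 2.84%, 2.74% and 1.18%, lower in each replicate number, and its log2 fold change was -1.16 ± 0.52 (adjusted p = 0.141) without and -1.12 ± 0.13 (adjusted p = 0.00173) with the replicate block.

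Cox6a2, the heart and muscle form, was at 0.509%, 0.317% and 0.573% of Cox6a1 in WT control and 0.211%, 0.157% and 0.261% after TGF-β2. These did not overlap. Its WT log2 fold change was -0.67 ± 0.28 (adjusted p = 0.133, edgeR's quasi-likelihood test), and -0.72 ± 0.34 (adjusted p = 0.161) without replicate 2. In KO it was at 1.34% of Cox6a1 in control replicate 1 and 0.405% and 0.474% in the others, and at 0.781%, 0.219% and 0.214% after TGF-β2. Its log2 fold change in KO was -0.91 ± 0.69 (adjusted p = 0.347), and -0.94 ± 0.19 (adjusted p = 0.0114) with the replicate block. Cox4i2, a form typical of lung, had 7, 20 and 17 counts in WT control and 4, 3 and 4 after TGF-β2, and 9, 12 and 10 in KO control and 4, 1 and 6 after TGF-β2. It was under the level filter, and with no filter its log2 fold change was -1.90 ± 0.52 (adjusted p = 0.0411) in WT and -1.49 ± 0.59 (adjusted p = 0.127) in KO. Cox7a1, the muscle form of Cox7a, stayed between 0.459 and 1.33 RPKM in the 12 libraries, against 93.8 RPKM or more for Cox7a2.

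**Figure D5:**
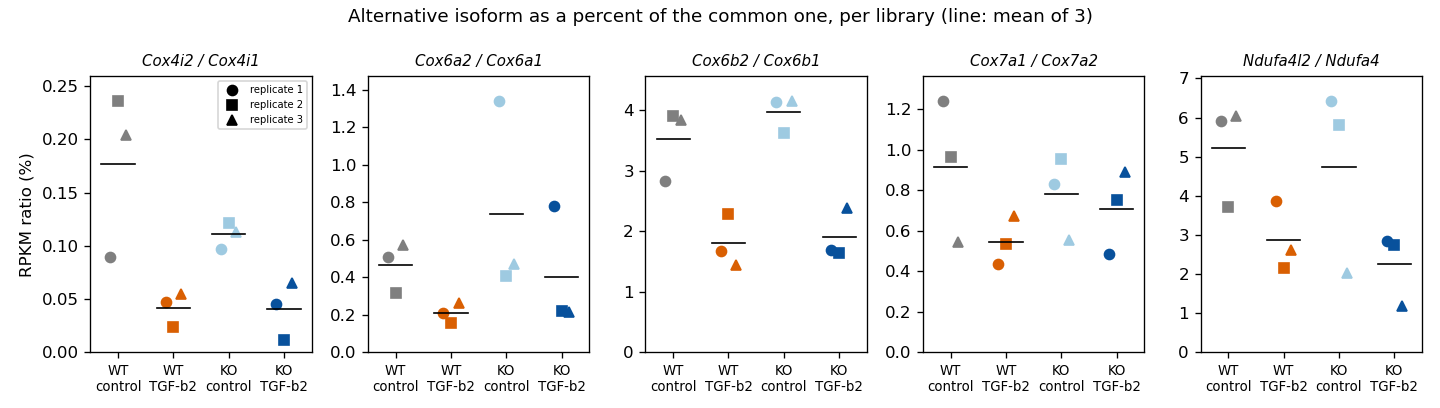
RPKM of 5 alternative subunit forms as a percent of the common form (y axis, from 0), per library in the 4 groups, with bars at the mean of 3. Cox6b2 is at 2.83% to 4.15% in controls and 1.44% to 2.39% after TGF-β2 over both genotypes, while Ndufa4l2 and Cox6a2 spread widely in KO control.

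Genes that build or regulate the complexes were taken from lists written for the purpose. Of 50 assembly factors, 7 of 45 tested were higher and 0 lower in WT, near and below the 12.4% and 11.7% of all genes. The largest changes were those of Fmc1, a complex V assembly factor (0.94 ± 0.23, adjusted p = 0.0286, and 0.66 without replicate 2), Cox11, which delivers copper to complex IV (0.82 ± 0.17, adjusted p = 0.0152, and 0.84 without), and the complex I factor Ndufaf6 (0.70 ± 0.16, adjusted p = 0.0254, and 0.55 without). All of these 3 were also called without WT replicate 2, where the list had 6 higher and 3 lower and all genes 15.3% and 16.3%. In KO, 3 of 46 were higher and 7 lower, against 15.1% and 14.9% of all genes, led by the complex I factor Ndufaf3 (-0.61 ± 0.15, adjusted p = 0.0264), the complex II factor Sdhaf4 (-0.48 ± 0.12, adjusted p = 0.0294) and the complex III factor Uqcc3 (-0.46 ± 0.12, adjusted p = 0.0314).

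Of the 13 regulators of mitochondrial biogenesis, Ppargc1a and Ppargc1b, the coactivators PGC-1α and PGC-1β, stayed under 1 RPKM in every library (at most 0.0265 and 0.181). Esrra, the receptor ERRα, was higher in WT (0.28 ± 0.08, adjusted p = 0.0471, and 0.24, adjusted p = 0.0401 without replicate 2), and at -0.02 ± 0.09 (adjusted p = 0.858) in KO. Pprc1, a relative of PGC-1α, was higher in KO (0.48 ± 0.09, adjusted p = 0.0144) and at 0.32 ± 0.13 (adjusted p = 0.115) in WT, where it passed without replicate 2 (0.42, adjusted p = 0.00512). Gabpb2, a GABP partner, was lower in KO (-0.35 ± 0.08, adjusted p = 0.0240) and at -0.58 ± 0.20 (adjusted p = 0.0831) in WT, where it also passed without replicate 2 (-0.41, adjusted p = 0.0258). Nrf1, Gabpa, Gabpb1, Yy1, Tfam, Tfb1m, Tfb2m and Polrmt did not pass in either genotype with 6 libraries, and Yy1 passed in WT without replicate 2 (0.27, adjusted p = 0.0211). Of the 11 regulators tested, 1 was thus higher and 0 lower in WT with 6 libraries and 1 and 1 in KO, below the shares of all genes called. Without WT replicate 2, 3 of the 11 were higher and 1 lower in WT. All genes then had 15.3% and 16.3%, so the share of regulators called higher was above the background.

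Of a list of 21 genes, mainly for electron carriers, coenzyme Q synthesis, nucleotide exchange and uncoupling, 20 were tested, with 5 higher and 1 lower in WT. Over all genes 12.4% and 11.7% were called, and without WT replicate 2 the list again had 5 higher and 1 lower. In KO, 3 of them were higher and 2 lower, not above the 15.1% and 14.9% of all genes. Coq8b, a coenzyme Q synthesis factor, was higher in both (0.52 ± 0.12, adjusted p = 0.0257 in WT, 0.37 and 0.0236 without replicate 2, and 0.51 ± 0.12, adjusted p = 0.0285 in KO). In WT the other leading genes were Aox1 (-1.60 ± 0.32, adjusted p = 0.0153, and -1.55, adjusted p = 0.0350 without replicate 2), and Pdss1, which makes the tail of coenzyme Q (0.59 ± 0.16, adjusted p = 0.0416, and 0.50, adjusted p = 0.0715 without replicate 2). Aox1, the only lower gene of the list in WT, is an aldehyde oxidase outside the roles named. In KO they were Etfb, a subunit of the electron transfer flavoprotein (-0.42 ± 0.11, adjusted p = 0.0300), and Coq6 (-0.28 ± 0.08, adjusted p = 0.0444). Between genotypes 0 genes of the list were called. The highest KO over WT log2 fold change in the list was 4.64 in control and 4.15 after TGF-β2. The list includes the uncoupling gene Ucp2, which the authors reported as upregulated in KO fibroblasts with and without TGF-β2.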

How the data were processed

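Per the labels, 12 libraries of mouse skin fibroblasts were grouped by genotype and stimulation, 3 per group. The authors aligned 50-base single-end reads to GRCm38 (STAR 2.4), removed those with several locations and counted the rest per gene over the joined exons of its protein-coding transcripts (featureCounts 1.4.6) (versions per the submitters' processing notes, which also list CASAVA 1.8.2). The deposited values are raw counts per gene, and use of strand is not given in the sources used here, so overlapping genes on opposite strands are not separated. Symbols and merged exon lengths came from GENCODE M21 by Ensembl identifier, and RPKM was computed from count, length and library total. The limit of 3 counts for a count of 0 covers counting error only.

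Each comparison was fitted on its 6 libraries with edgeR 4.0.16 (R 4.3.3, limma 3.58.1) with TMM factors and a quasi-likelihood test, for genes with a mean of at least 1 RPKM in a group, and the interaction on all 12. DESeq2 1.42.0, other scalings and filters, a fit of all libraries, a replicate block and leaving out each library were alternatives, and the length trend and a block within each genotype were added after the data had been seen. The scripts were tested on simulated data. Libraries were taken as paired where every correlation between same-numbered libraries was over 0.1, which held in the KO pair of groups only. The labels do not say that a number marks a shared culture. In the other pairs of groups the lowest correlation was 0.0396 (WT), 0.00713 (control) and -0.191 (stimulated). In WT the other correlations were 0.432 for replicate 2 and 0.52 for replicate 3, so pairing of WT libraries is not excluded.

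Named members are the 10 called members with the largest change per comparison, the largest change per complex, isoform pairs, the 3 smallest p where none was called, the highest and lowest level per complex, and, of the related lists, the 3 largest called changes and all regulators. Members and lists were chosen with earlier results of these data known. The 50-base windows of members were searched on either strand in the annotated transcripts of GENCODE M21. Sequence outside these transcripts was not searched.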

Additional observations from a re-analysis of the deposited data

Results flagged for a closer look

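For 3 members the change after TGF-β2 had opposite directions in the genotypes, in that every stimulated WT library was above and every stimulated KO library below all of its controls in CPM with TMM factors. With 6 libraries Cox5b was called in both genotypes, Cox8a in KO only and Uqcrb in neither. The WT values of Uqcrb overlap in RPKM. The KO minus WT difference in log2 fold change was -0.99 for Cox5b, -0.83 for Cox8a and -0.31 for Uqcrb. The interaction test gave an adjusted p of 0.854 for each (edgeR's quasi-likelihood test, Benjamini-Hochberg), so the difference did not pass. With the length trend removed the differences were -0.68, -0.45 and 0.056, so that of Uqcrb changed sign. Without stimulated WT replicate 2 the differences were -0.75, -0.57 and -0.15, with an adjusted p of 1.00 each.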

How the results depend on the processing

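No called change of a named member turned its direction under an alternative. Members called higher in WT (4) were 1 with upper-quartile scaling, 0 with library size alone, 9 with DESeq2, 1 (and 1 lower) with no filter, 1 with a filter of 10 counts, 14 in a fit of all 12 libraries, 9 with the replicate block, 0 at a fold of at least 2, and 7 (and 5 lower) with the length trend removed. Leaving out a library gave 0 to 6 higher, 0 to 2 lower and a median of 0.00 to 0.36. In KO, members called higher (2) and lower (14) became 0 higher with upper-quartile scaling (median -0.17), 0 and 23 with library size alone (median -0.19), 4 higher with DESeq2, 6 lower with no filter, 7 lower with 10 counts, 1 and 1 with all 12 libraries, 4 higher with the replicate block, 0 and 1 at a fold of at least 2, and 6 and 5 with the length trend removed (median -0.0095). Leaving out a library gave 0 to 2 higher, 1 to 13 lower and a median of -0.13 to -0.08. With the length trend removed, the median of KO against WT control (0.05) changed sign to -0.0087, and that of the interaction was -0.016. Leaving out a library gave medians of 0.03 to 0.08 in control, -0.37 to -0.04 after TGF-β2 and -0.45 to -0.10 for the interaction. The replicate block called no member in the genotype comparisons or the interaction, so it changed no call there. A trend centred within each group was also run, and was not used because it leaves the shift of the group in place.

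Over all genes, calls split into 994 higher and 1401 lower in WT and 1216 and 1969 in KO with upper-quartile scaling, and into 890 and 1369 and 1044 and 2119 with library size alone, where the median of all genes in KO was -0.10. The share of all genes called higher in WT was 18.6% with all 12 libraries, 13.6% with the replicate block, 15.5% with DESeq2, 16.8% with the length trend removed, 10.4% with a filter of 10 counts and 7.39% with no filter, so the members' counts stand against a moving background. In KO the share called lower was 18.2% with upper-quartile scaling, 19.6% with library size alone, 9.38% with no filter, 13.6% with a filter of 10 counts and 12.6% with all 12 libraries. The cause of these shifts was not tested. With 3 libraries per group, small changes of single members were not detectable beyond the spread given.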
